A study of Mus musculus with 18 samples.

Results

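The cholesterol synthesis genes described here are Hmgcs1, Idi1, Fdps, Fdft1, Sqle, Lss, Insig1 and Srebf2, which were taken by their symbols from the gene column of the count table. They are 8 of the 45706 genes in the table, and all 8 passed the filter on low counts that left 16619 genes for the test. Of these, 6 encode enzymes of the pathway, and Insig1 and Srebf2 encode its regulators, so the name of the group holds strictly for the 6 enzymes.

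The RNA-seq data came from mouse induced pluripotent stem cells (iPSCs), which are reprogrammed cells kept in a naive state, and from the same lines 24 h after induction into epiblast-like cells (EpiLCs), a state closer to the epiblast after implantation. There were 3 lines, wt cells from 1 clone and a pair of clones labelled Hmga2 KO, KO#1 and KO#2. Each line gave 3 libraries at 0 h and 3 at 24 h, which are described as independent biological replicates. Hmga2 is an architectural chromatin protein. At 0 h the cells of each line grew on inactivated fibroblast feeders in a medium with serum, leukaemia inhibitory factor and 2i, a pair of kinase inhibitors that hold the naive state. At 24 h they were in a serum-free medium with N2, B27, BSA, Activin A and bFGF on basement membrane matrix. The treatment label names the induction for the samples of 0 h too, so their condition is taken from the time label and the growth protocol. By these, time, cell state, serum, inhibitors and feeders changed together in every line and cannot be told apart.

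Cholesterol is built from acetyl-CoA through mevalonate, the isoprenoid diphosphates and squalene. The genes of this pathway are switched on together by SREBP2, the product of Srebf2, a transcription factor held in the endoplasmic reticulum by the INSIG proteins while sterols are plentiful and released to the nucleus when they are scarce. Cells in a medium with serum take up much of their cholesterol with lipoproteins, while cells without serum depend more on their own synthesis.

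SREBP2 binds the sterol regulatory element, and the promoter windows were searched for it because the members share this regulator. RefSeq windows of GRCm38.p6, from 250 bases before to 50 bases after the annotated start, were at hand for 5 of the 8 members (Hmgcs1, Idi1, Lss, Insig1 and Srebf2). The element was written as TCACNCCAC and searched on both strands. It was found in 1 of the 5 windows, that of Hmgcs1, at position -137 on the gene's own strand (-1 is the base before the annotated start, and positions give the first base of a match), and in 1.24% of all 32851 windows. Its first 8 letters, TCACNCCA, a core that was added after the sequences had been seen and that overlaps the full element, were also found in the window of Srebf2 at position -162 and in 4.36% of all windows. The E-box CACGTG, a site of basic helix-loop-helix factors, was found in Insig1 at position -101 and in 7.15% of all windows. The CCAAT box and the Sp1 box GGGCGG were found in all 5 windows, against 37.4% and 35.7% of all windows. The 3 stretches that hold an element, its core or an E-box are printed 5′ to 3′ on the gene's strand, up to the first annotated start. Capitals mark the element or its core, the E-box, and CCAAT on either strand (ATTGG where it lies on the other one). They span chr13:119690101-119690350, chr15:82147019-82147180 and chr5:28071162-28071362.
Hmgcs1: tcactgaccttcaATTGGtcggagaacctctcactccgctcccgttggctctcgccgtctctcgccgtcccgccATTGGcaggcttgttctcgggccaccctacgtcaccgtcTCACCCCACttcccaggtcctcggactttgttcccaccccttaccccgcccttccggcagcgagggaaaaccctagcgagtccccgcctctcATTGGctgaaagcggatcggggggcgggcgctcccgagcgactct
Srebf2: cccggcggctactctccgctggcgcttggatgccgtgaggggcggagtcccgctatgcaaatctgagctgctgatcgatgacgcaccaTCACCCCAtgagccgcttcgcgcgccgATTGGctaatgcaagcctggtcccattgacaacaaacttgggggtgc
Insig1: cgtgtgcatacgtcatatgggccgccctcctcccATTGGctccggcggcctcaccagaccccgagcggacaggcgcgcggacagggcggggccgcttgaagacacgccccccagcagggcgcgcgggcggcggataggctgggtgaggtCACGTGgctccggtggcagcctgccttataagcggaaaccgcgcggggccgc
In Hmgcs1 the element lies between CCAAT boxes on either side, and in Srebf2 its core precedes a CCAAT box. A match is a run of letters and not a bound site, and the lack of an exact match does not show that a site is absent.

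Total counts were 3466436 to 14613617 in wt and KO#1 at 0 h and 13448569 to 23872837 in the other groups. The share of counts in protein-coding genes was 41.3% to 63.4% in wt and KO#1 at 24 h and 82.3% to 84.7% in the KO#2-labelled libraries at 24 h. Hmga2 was at 13.3 to 22.4 CPM (counts scaled to library size, with factors from the trimmed mean of M-values) in wt cells at 0 h, against 1.75 to 10.2 in KO#1 and 1.84 to 8.25 in KO#2. At 24 h it was at 5.51 to 5.93 CPM in wt cells, 0.871 to 3.67 in KO#1 and 3.02 to 10.5 in the KO#2-labelled libraries. At 0 h all libraries of both clones lay below wt cells, and edgeR called the difference for KO#2 (log2 fold change -1.90, adjusted p = 0.023) but not for KO#1 (-1.71, adjusted p = 0.124). At 24 h the KO#1 libraries were again all below wt cells, uncalled (-1.36, adjusted p = 0.22), while those labelled KO#2 overlapped wt cells (-0.04, adjusted p = 0.966), hence the wording used for them. The study also blotted for Hmga2 protein, which was not analysed here. Of 10 markers of naive pluripotency, 8 fell in each line by 24 h, and of 8 primed markers 7 rose. Against wt cells at 24 h edgeR called 5 of the 10 naive markers higher in KO#1 and 6 in the KO#2-labelled libraries. Of the 8 primed markers it called 4 and 2 lower, and no call went the other way. Over all genes tested 9.86% and 37.3% were called in either direction. The part of these marker differences in the results was not tested. The summed level of 8 fibroblast markers was 110 to 898 CPM over the libraries at 0 h and 19.0 to 219 CPM at 24 h. At 0 h the KO#2-labelled libraries (331 to 898 CPM) overlapped wt cells (110 to 390) and KO#1 (183 to 514). At 24 h their sums (71.0 to 219 CPM) lay above those of the other lines. Of these markers Dcn had no counts in the wt libraries at 0 h, and no other marker was at 0 in any group as a whole. The part of feeder RNA in the results was not tested, and in bulk RNA fewer cells of a type and less RNA per cell cannot be told apart.

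The first question was how the pathway moved as each line left the naive state. All 6 enzymes rose from 0 h to 24 h in each of the 3 lines. Insig1 rose in the KO#2-labelled libraries, and Srebf2 fell in wt cells and in KO#1. A change was called where the adjusted p of edgeR's quasi-likelihood test, over all genes tested, was under 0.05. In wt cells 6 of the 8 members rose, where 26% of all genes tested rose, and 1 fell, where 24.7% fell. In KO#1 it was 6 and 1 (20.1% and 20.6% of all genes), and in the KO#2-labelled libraries it was 7 that rose (12.7%) and none that fell (13.3%). The median log2 fold change of the 6 enzymes was 1.78 for wt cells, 1.19 for KO#1 and 1.79 for the KO#2-labelled libraries, against 0.03, 0.00 and -0.03 over all genes tested.

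**Figure D1:**
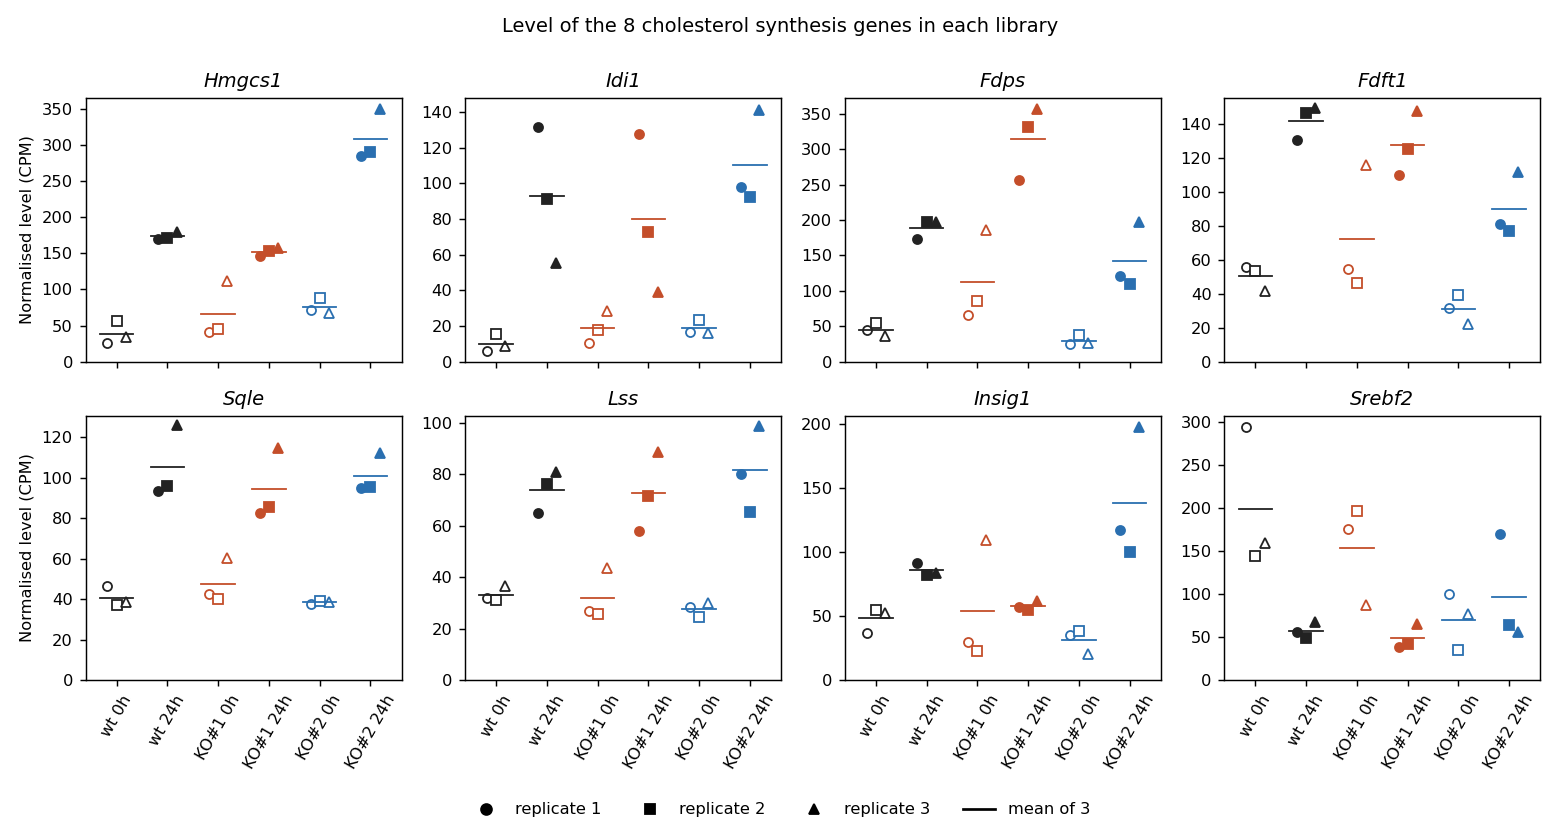
Level of each member in CPM (vertical axes from 0) in the 18 libraries, with open symbols for 0 h, filled symbols for 24 h, a shape for each replicate number and a line at the mean of 3. The 6 enzymes lie higher at 24 h in each line except for 1 library of KO#1 at 0 h in Fdft1, while Srebf2 lies lower at 24 h in wt cells and KO#1.

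Hmgcs1 (ENSMUSG00000093930, chromosome 13, 119690379 to 119708260 in GRCm38, plus strand) encodes the cytosolic HMG-CoA synthase, which feeds the mevalonate route. In wt cells its level was 26.2, 56.3 and 34.3 CPM at 0 h and 170, 172 and 179 CPM at 24 h. The KO#1 libraries held 41.3, 45.1 and 112 CPM at 0 h and 147, 154 and 157 CPM at 24 h. Those labelled KO#2 held 71.6, 88.6 and 67.2 CPM at 0 h and 285, 291 and 350 CPM at 24 h. No library at 24 h overlapped one of its own line at 0 h, and replicate 3 of KO#1 at 0 h stood 2.49-fold above the next library of its group. The log2 fold change was 2.14 in wt cells (SE 0.34, adjusted p = 7.25e-05), 1.20 in KO#1 (SE 0.33, adjusted p = 0.00775) and 2.02 for the KO#2-labelled libraries (SE 0.33, adjusted p = 0.000291) by edgeR. Without replicate 1 of KO#1 at 0 h the change in KO#1 was 0.95 and was no longer called (adjusted p = 0.0505), and without the high replicate 3 it was 1.83 (adjusted p = 0.000137).

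Idi1 (chromosome 13, 8885501 to 8892451, plus strand) encodes the isomerase that makes dimethylallyl diphosphate, and it had the largest rise of the members in each line. In wt cells it went from 5.90, 15.5 and 8.59 CPM at 0 h to 132, 91.4 and 55.0 CPM at 24 h. KO#1 went from 10.3, 17.96 and 28.3 CPM to 127, 72.9 and 39.1 CPM. The KO#2-labelled libraries went from 16.8, 23.4 and 16.3 CPM to 97.8, 92.2 and 141 CPM. The groups did not overlap in any line, and at 24 h replicate 1 was the highest and replicate 3 the lowest in both wt cells and KO#1. The log2 fold change was 3.17 (SE 0.47, adjusted p = 4.58e-05) in wt cells, an 8.97-fold rise, 2.07 in KO#1 (SE 0.45, adjusted p = 0.00164) and 2.55 for the KO#2-labelled libraries (SE 0.45, adjusted p = 0.000518).

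Fdps (chromosome 3, 89093588 to 89101959, minus strand) encodes farnesyl diphosphate synthase, where the routes to squalene and to the isoprenoids part. In wt cells it went from 44.6, 54.7 and 36.5 CPM at 0 h to 174, 197 and 196 CPM at 24 h. KO#1 started at 65.6, 85.0 and 186 CPM and reached 257, 331 and 356 CPM. The KO#2-labelled libraries started at 24.6, 37.8 and 25.9 CPM and reached 121, 110 and 197 CPM. The highest levels at both times were those of KO#1, and there too the groups of 0 h and 24 h did not overlap. The log2 fold change was 2.06 in wt cells (SE 0.34, adjusted p = 0.000129), 1.49 in KO#1 (SE 0.34, adjusted p = 0.0023) and 2.28 for the KO#2-labelled libraries (SE 0.34, adjusted p = 0.000147).

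Fdft1 (chromosome 14, 63145150 to 63179578, minus strand) encodes squalene synthase, the first enzyme given over to sterols alone. It lay at 41.8 to 55.8 CPM in wt cells at 0 h and at 130 to 149 CPM at 24 h, a log2 fold change of 1.50 (SE 0.30, adjusted p = 0.000649). The KO#2-labelled libraries lay at 22.4 to 39.0 CPM at 0 h and at 76.9 to 111 CPM at 24 h (log2 fold change 1.53, SE 0.30, adjusted p = 0.00124). For KO#1 the values were 54.7, 46.6 and 116 CPM at 0 h and 110, 125 and 148 CPM at 24 h. Replicate 3 at 0 h overlapped the group of 24 h, and this was the least firm of the rises, with a log2 fold change of 0.81 (SE 0.30, adjusted p = 0.036). It was not called when replicate 1 or 2 of KO#1 at 0 h or any of its replicates at 24 h was left out (0.56 to 0.90, adjusted p of 0.0505 to 0.178), nor in a fit of only the groups compared (adjusted p = 0.0803). Without the overlapping replicate 3 at 0 h it was 1.33 and was called (adjusted p = 0.000915).

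Sqle (chromosome 15, 59315077 to 59331192, plus strand) encodes squalene epoxidase, which adds oxygen to squalene, and Lss (chromosome 10, 76531588 to 76557138, plus strand) encodes lanosterol synthase, which closes the sterol rings. Sqle lay at 36.9 to 60.4 CPM in the 9 libraries at 0 h and at 82.3 to 126 CPM in the 9 at 24 h. Its log2 fold change was 1.38 in wt cells (SE 0.22), 0.98 in KO#1 (SE 0.21) and 1.39 in the KO#2-labelled libraries (SE 0.21). Lss lay at 24.5 to 43.5 CPM at 0 h and at 58.1 to 98.9 CPM at 24 h, with log2 fold changes of 1.16, 1.17 and 1.56 (SE 0.24 each). For both genes every library at 24 h was above every library at 0 h, also across lines, and the adjusted p in the 3 lines was at most 0.00172. Scaled by library sizes alone, neither was called in wt cells (Sqle 0.80, adjusted p = 0.0519, and Lss 0.53, adjusted p = 0.203) or in KO#1 (0.21, adjusted p = 0.619, and 0.40, adjusted p = 0.339), nor were Hmgcs1, Fdps and Fdft1 in KO#1. At 24 h replicate 3 was the highest in each line for Sqle and for Lss, the opposite of Idi1 in wt cells and KO#1.

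Insig1 (chromosome 5, 28071363 to 28078662, plus strand) encodes the anchor that keeps SREBP in the endoplasmic reticulum and is itself a target of SREBP. In wt cells it was at 37.1, 55.0 and 52.4 CPM at 0 h and at 91.7, 82.6 and 83.5 CPM at 24 h. KO#1 had 29.6, 22.8 and 110 CPM at 0 h and 56.7, 54.7 and 61.5 CPM at 24 h. The KO#2-labelled libraries had 35.1, 38.2 and 20.2 CPM at 0 h and 117, 100 and 198 CPM at 24 h. The groups did not overlap in wt cells or in the KO#2-labelled libraries, and in KO#1 replicate 3 at 0 h was above all 3 libraries of 24 h. The rise was called in the KO#2-labelled libraries (log2 fold change 2.15, SE 0.44, adjusted p = 0.00173). In wt cells the log2 fold change was 0.83 (SE 0.43, adjusted p = 0.114, 95% interval -0.07 to 1.73), and it was called in a fit of only the groups compared (adjusted p = 0.00958) and with no filter on low counts (adjusted p = 0.0179). In KO#1 it was 0.08 (SE 0.42, adjusted p = 0.897), and without replicate 3 at 0 h it was 1.14 and was called (adjusted p = 0.00852).

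Srebf2 (chromosome 15, 82147181 to 82205379, plus strand) encodes SREBP2 and hosts the microRNA gene Mir33 in an intron. In wt cells it was at 294, 143 and 160 CPM at 0 h and at 56.3, 48.3 and 67.3 CPM at 24 h. KO#1 had 175, 197 and 86.5 CPM at 0 h and 38.4, 41.3 and 65.5 CPM at 24 h. The KO#2-labelled libraries had 99.3, 34.3 and 77.0 CPM at 0 h and 170, 63.7 and 55.8 CPM at 24 h. Every library at 24 h was below every one at 0 h in wt cells and in KO#1, while the groups overlapped in the KO#2-labelled libraries. Srebf2 fell by 1.79 on the log2 scale in wt cells (SE 0.46, adjusted p = 0.00358) and by 1.65 in KO#1 (SE 0.45, adjusted p = 0.00817). In the KO#2-labelled libraries the log2 fold change was 0.46 (SE 0.44, adjusted p = 0.481, 95% interval -0.47 to 1.39), and without replicate 1 at 24 h, whose level was 170 CPM, it was -0.23. The highest values of wt cells at 0 h and of the KO#2-labelled libraries were in replicate 1, and in wt cells that library was also the shallowest, with 3466436 counts.

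**Figure D2:**
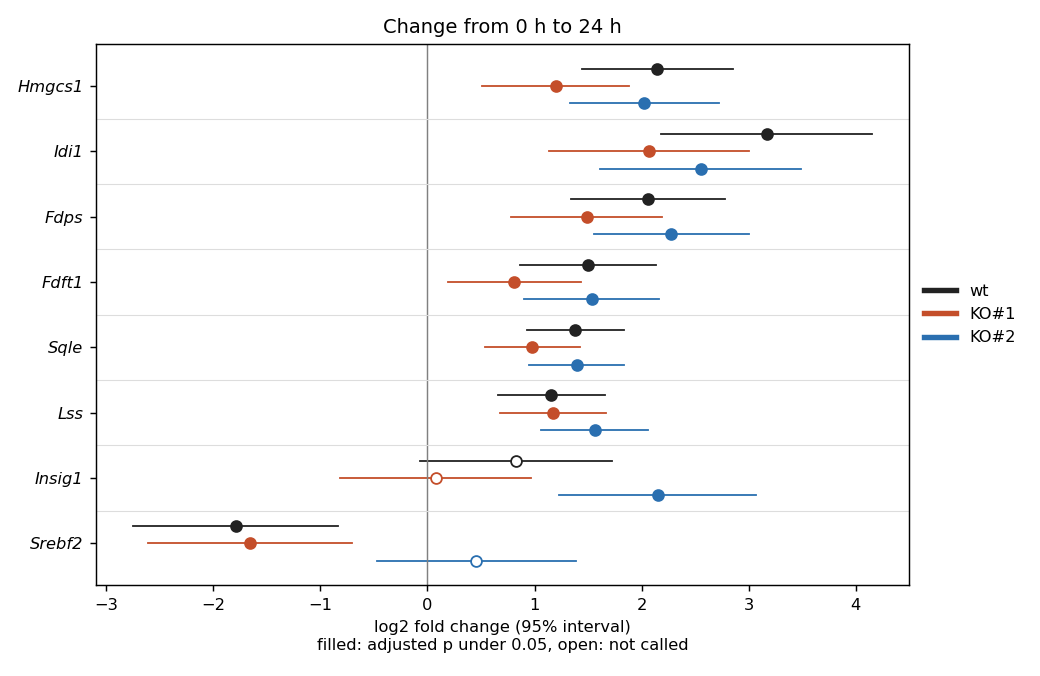
Change of each member from 0 h to 24 h as a log2 fold change (horizontal axis) with its 95% interval, for wt cells, KO#1 and the KO#2-labelled libraries. Filled points were called at an adjusted p under 0.05. The intervals of the 6 enzymes lie above 0 in each line, and Srebf2 lies below 0 in wt cells and KO#1 (-1.79 and -1.65).

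Between genes, levels can be compared only per length, as CPM per kilobase of annotated exons. In wt cells at 0 h Srebf2 was the highest of the members on this scale (27.7 ± 11.5, SD, n = 3) and Idi1 (2.85 ± 1.41) and Lss (3.07 ± 0.26) the lowest, within the spread of each other. Insig1 (15.6 ± 3.13), Fdft1 (11.9 ± 1.78) and Fdps (10.8 ± 2.17) lay between them. In wt cells at 24 h Fdps (44.9 ± 3.15, SD, n = 3), Hmgcs1 (37.8 ± 1.07) and Fdft1 (33.6 ± 2.39) were the highest, and Srebf2 (7.98 ± 1.33) and Lss (6.85 ± 0.76) the lowest. In wt cells the gene of the regulator thus stood above those of the enzymes at 0 h and next to the bottom of the order at 24 h. The exon length of Lss, 10787 bases, includes every annotated transcript and may be longer than what the cells made.

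Within groups the members varied together to an extent that rested in part on 1 group. The mean of the 6 enzymes on the log2 CPM scale at 0 h was 4.99 ± 0.22 (SD, n = 3) for wt cells, 5.54 ± 0.60 for KO#1 and 5.05 ± 0.17 for the KO#2-labelled libraries. At 24 h it was 6.92 ± 0.01, 6.90 ± 0.03 and 6.93 ± 0.27. On this scaling the means of the lines lay close together at 24 h, although single enzymes lay on either side of wt cells in the KO#2-labelled libraries. There the log2 fold change against wt cells was 0.83 for Hmgcs1 and -0.66 for Fdft1, both uncalled by edgeR. In wt cells and KO#1 the mean hardly varied between replicates although Idi1 ranged from 55.0 to 132 CPM and from 39.1 to 127 CPM. The wide spread of KO#1 at 0 h came from replicate 3, where the ratio to the mean of the other two libraries was 4.19 for Insig1, 2.60 for Hmgcs1, 2.47 for Fdps, 2.28 for Fdft1, 2.00 for Idi1, 1.65 for Lss, 1.46 for Sqle and 0.466 for Srebf2. That library had 14613617 counts, with 77.4% in protein-coding genes, against 61.95% to 67.7% in the other two. The part of this difference in the result was not tested.

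Across the 18 libraries Insig1 followed the mean of the 6 enzymes with r = 0.79, and Srebf2 ran against it with r = -0.60, on the log2 CPM scale. For deviations from the group means the values were 0.91 and -0.61. These are descriptions, since the libraries share the step from 0 h to 24 h. Between single members, deviations correlated at 0.88 for Fdps with Fdft1 and at 0.85 for Hmgcs1 with Insig1, and at 0.83 and 0.62 over the 15 libraries outside KO#1 at 0 h. Other pairs lost their relation outside that group, such as Hmgcs1 with Sqle (0.40 and -0.15), Hmgcs1 with Lss (0.51 and 0.03) and Sqle with Insig1 (0.54 and 0.07). For Idi1 with Sqle the value was -0.28 over all 18 libraries and -0.72 over those 15.

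**Figure D3:**
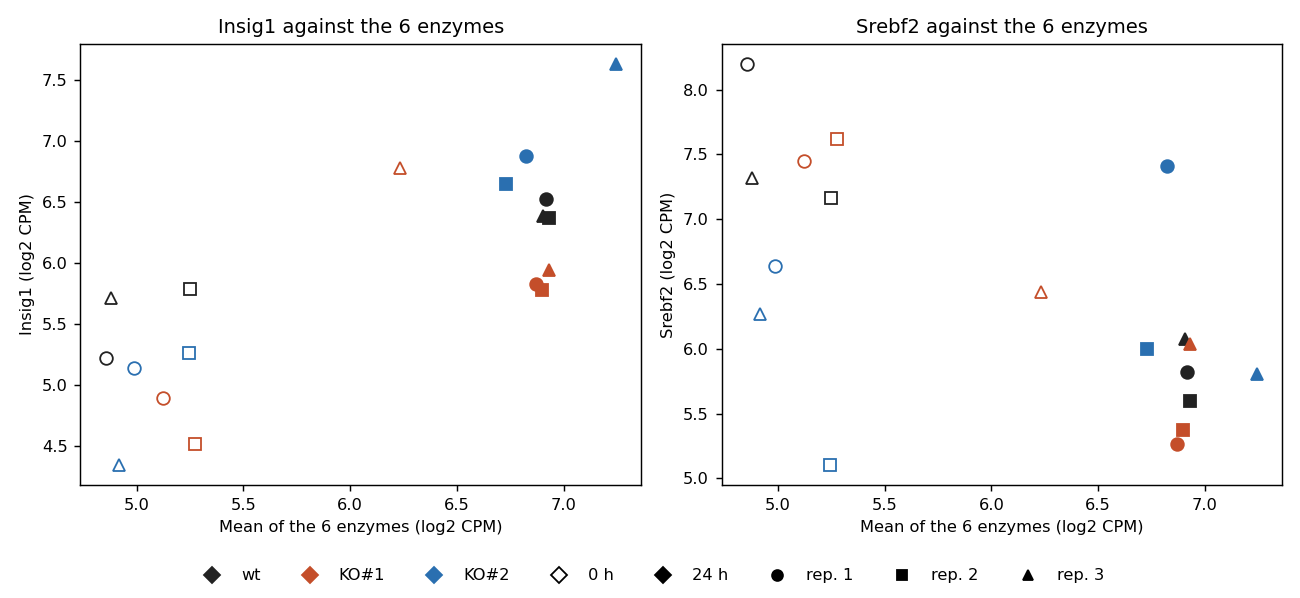
Log2 CPM of Insig1 (left) and Srebf2 (right) on the vertical axes against the mean log2 CPM of the 6 enzymes in each of the 18 libraries, with colours for the lines, open symbols for 0 h and filled for 24 h. On the horizontal axis replicate 3 of KO#1 at 0 h (open triangle, 6.23) stands between the other libraries of 0 h and those of 24 h, and its Insig1 (6.78) is above that of the wt and KO#1 libraries at 24 h.

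The second question was how the KO clones differed from wt cells at each time. These comparisons share the 3 wt libraries of that time. At 0 h, 1 of the 8 members was called in KO#1, where 6.67% of all genes were, and 2 of 8 in the KO#2-labelled libraries, where 38.1% were. DESeq2 called 1 and 3 members at 0 h. At 24 h no member was called in either, where 9.86% and 37.3% of all genes were, by edgeR. At an unadjusted p under 0.05 it was 1 member in KO#1 at 24 h and 2 in the KO#2-labelled libraries, and DESeq2 called 0 and 1. With 8 members such a share is coarse, and in the KO#2-labelled libraries the count at either time depended on the scaling and the fit.

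In KO#1 at 0 h Fdps was higher than in wt cells, with a log2 fold change of 1.31 (SE 0.34, adjusted p = 0.0233), and its 3 libraries of 65.6 to 186 CPM lay above the 36.5 to 54.7 CPM of wt cells. Without replicate 3 of KO#1 the log2 fold change was 0.73 and was not called (adjusted p = 0.178), nor was it without replicate 1 or 3 of wt cells (1.31 and 1.18, adjusted p = 0.0713 and 0.126). A fit of only the groups compared did not call it either (adjusted p = 0.117). At 24 h all 3 KO#1 libraries were again above wt cells in Fdps, with a log2 fold change of 0.74 (SE 0.33, adjusted p = 0.191, 95% interval 0.04 to 1.43), and it was called in a fit of only the groups compared (adjusted p = 0.037). The replicate numbers paired the libraries of this comparison. The fit with the replicate as a block called no member, but that block was shared by all 18 libraries. No paired fit of this comparison alone was run. The other 7 members differed between KO#1 and wt cells at 24 h by -0.58 to -0.02 on the log2 scale, with adjusted p of 0.494 to 0.984. Of the 8 members 6, all but Fdps and Lss, were lower in KO#1 in each of the 3 same-numbered pairs, where 31.3% of all genes tested were. For Insig1 (54.7 to 61.5 against 82.6 to 91.7 CPM) and Hmgcs1 (147 to 157 against 170 to 179 CPM) the groups did not overlap.

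In the KO#2-labelled libraries at 0 h Hmgcs1 was higher than in wt cells (log2 fold change 0.95, SE 0.33, adjusted p = 0.0298) and Srebf2 was lower (-1.50, SE 0.45, adjusted p = 0.0158), with no overlap of the groups in either gene. The call of Hmgcs1 was lost without replicate 1 or 3 of wt cells (adjusted p = 0.14 and 0.0997) and without replicate 1 or 2 of KO#2 (adjusted p = 0.0525 and 0.0928). The call of Srebf2 was lost without replicate 1 of wt cells, whose level was 294 CPM (log2 fold change -1.14, adjusted p = 0.0734), and without replicate 2 of KO#2 (-1.17, adjusted p = 0.0679), and also with library sizes alone as the scaling (-0.97, adjusted p = 0.117). At 24 h Hmgcs1 was again higher in all 3 libraries, at 285 to 350 CPM against 170 to 179 CPM, with a log2 fold change of 0.83 (SE 0.32, adjusted p = 0.0505). It was called there by DESeq2 (adjusted p = 0.0266) and in several other settings. For Fdft1 all 3 libraries lay below wt cells at both times, with log2 fold changes of -0.70 (SE 0.30, adjusted p = 0.0719) and -0.66 (SE 0.29, adjusted p = 0.0857), so that Hmgcs1 and Fdft1 lay on opposite sides of wt cells, except that with library sizes alone Fdft1 at 24 h was at 0.38. DESeq2 called Fdft1 at 0 h (-0.75, adjusted p = 0.0384), and edgeR called it at 24 h in a fit of only the groups compared (-0.75, adjusted p = 0.021). Of the 8 fibroblast markers, 4 were higher in these libraries at 0 h and 6 at 24 h, and their part in the differences was not tested.

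**Figure D4:**
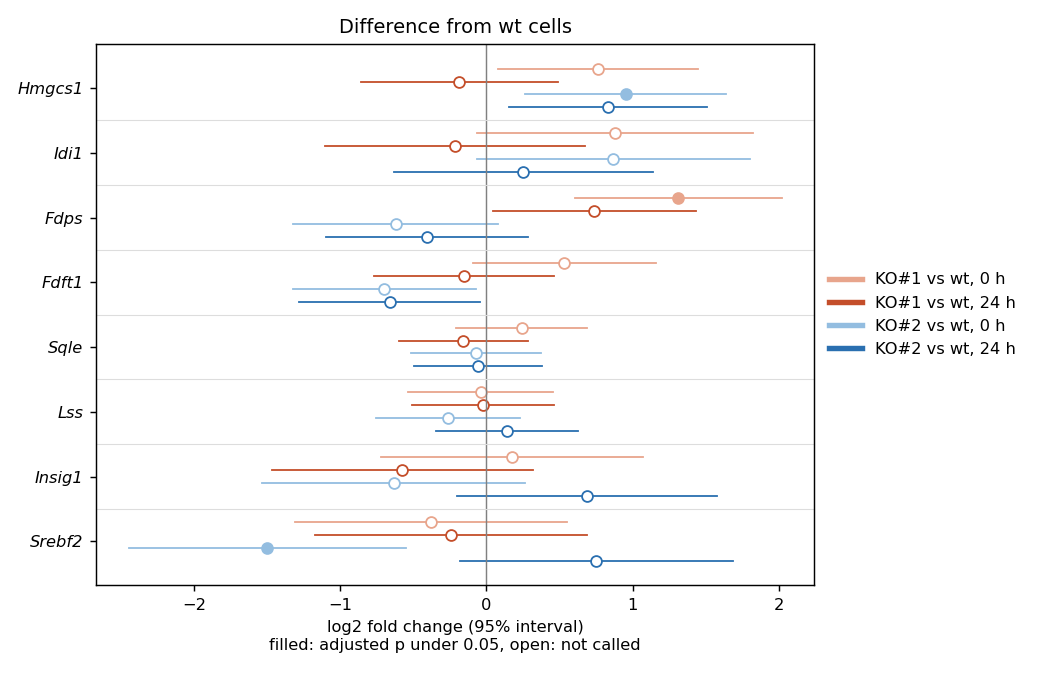
Difference of each KO clone from wt cells as a log2 fold change (horizontal axis) with its 95% interval, at 0 h (light) and 24 h (dark), filled where the adjusted p was under 0.05. Fdps in KO#1 at 0 h (1.31) and Hmgcs1 and Srebf2 in the KO#2-labelled libraries at 0 h (0.95 and -1.50) are the filled points.

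The third question was whether the change from 0 h to 24 h itself differed between a KO clone and wt cells, which an interaction term tested. No member was called for KO#1, where 0.391% of all genes were, or for the KO#2-labelled libraries, where 1.47% were, by edgeR. At an unadjusted p under 0.05 it was 0 and 2 members, and DESeq2 called 0 and 1. Both differences rest on the same wt libraries. The largest was that of Srebf2 in the KO#2-labelled libraries, whose change was 2.25 above that of wt cells on the log2 scale (SE 0.63, adjusted p = 0.074, 95% interval 0.92 to 3.58). DESeq2 called this gene (adjusted p = 0.0114), and so did edgeR on protein-coding genes only (adjusted p = 0.0423). With single libraries left out it was called in 1 of 12 omissions, that of replicate 3 of KO#2 at 24 h (2.53, adjusted p = 0.0379), and the difference went down to 1.56 without replicate 1 of KO#2 at 24 h (adjusted p = 0.223). Insig1 differed by 1.32 in the same libraries (SE 0.60, adjusted p = 0.197). The 6 enzymes differed by -0.61 to 0.41 there and by -1.10 to 0.02 in KO#1, where the rise was smaller than in wt cells for 5 of the 6 and none was called. Without replicate 3 of KO#1 at 0 h the latter were -0.65 to 0.31.

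The neighbouring pathways were taken as 6 lists of 58 genes, all of which were tested. Their counts stand beside the shares over all genes tested, of which 26% rose and 24.7% fell in wt cells, 20.1% and 20.6% in KO#1, and 12.7% and 13.3% in the KO#2-labelled libraries. Of 14 other enzymes of cholesterol synthesis, 9 rose in wt cells, 6 in KO#1 and 9 for the KO#2-labelled libraries, and 1 (Hsd17b7, a ketosteroid reductase, -0.95) fell in KO#1. Their median log2 fold change was 0.96, 0.70 and 1.11, below that of the 6 enzymes in each line. Mvd, which makes isopentenyl diphosphate, led in KO#1 (1.38), and Cyp51, which demethylates lanosterol, in the KO#2-labelled libraries (1.90).

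Of 9 genes of sterol sensing and SREBP processing, 3 fell in wt cells, 2 in KO#1 and 1 for the KO#2-labelled libraries, and no rise was called by edgeR. The counts of falls are near the share over all genes in each line. The largest fall in wt cells was that of Srebf1 (-1.34, adjusted p = 0.00307), which encodes the SREBP of fatty acid synthesis. In KO#1 it was Erlin2 (-0.82), and in the KO#2-labelled libraries Mbtps2 (-0.83), the protease that makes the second cleavage of SREBP. Of 9 genes of sterol uptake and transport, 3 rose and 4 fell in wt cells, 2 and 4 in KO#1 and 4 and 3 for the KO#2-labelled libraries. Vldlr, a lipoprotein receptor, had the largest fall in each line, from 8.62 ± 2.73 (SD, n = 3) to 0.300 ± 0.052 CPM in wt cells, from 9.20 ± 4.63 to 0.162 ± 0.087 CPM in KO#1 and from 21.5 ± 1.03 to 4.13 ± 1.56 CPM in the KO#2-labelled libraries.

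Of 7 genes of the arm that removes sterols, the liver X receptor genes Nr1h2 and Nr1h3 and 5 of their targets and efflux genes, 5 fell in wt cells, 4 in KO#1 and 3 for the KO#2-labelled libraries, where 1 rose, the receptor gene Nr1h2. Abca1, the exporter of cholesterol to apolipoproteins, fell from 21.8 ± 9.61 to 3.44 ± 0.50 CPM (SD, n = 3) in wt cells and from 27.9 ± 9.55 to 3.41 ± 0.65 CPM in KO#1. In the KO#2-labelled libraries it fell from 65.5 ± 12.5 to 19.9 ± 3.82 CPM, and it was higher than in wt cells at 24 h (log2 fold change 2.52, adjusted p = 2.68e-05). Apoe, an apolipoprotein, fell from 1338 ± 230.0 to 293 ± 55.6 CPM in wt cells, and at 0 h it was lower in KO#1 (-1.52, adjusted p = 0.00237) and in the KO#2-labelled libraries (-1.24, adjusted p = 0.00295).

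Of 10 genes of fatty acid synthesis, 3 rose and 4 fell in wt cells, 2 rose in KO#1 and 5 rose in the KO#2-labelled libraries. The number that rose is near the share over all genes in wt cells and KO#1. Scd1, a stearoyl-CoA desaturase, went from 126 ± 9.92 to 50.2 ± 4.77 CPM (SD, n = 3) in wt cells and from 74.6 ± 16.9 to 199 ± 46.1 CPM in the KO#2-labelled libraries. Of 9 genes of the isoprenoid branch, 3 rose and 2 fell in wt cells, 1 and 3 in KO#1, and 1 fell in the KO#2-labelled libraries, which in wt cells is near the shares over all genes. The median log2 fold change of this list was 0.07, 0.49 and 0.01. Coq2, an enzyme of ubiquinone synthesis, fell in each line and was lower than in wt cells in both KO clones at 24 h (-1.89 and -1.72).

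**Figure D5:**
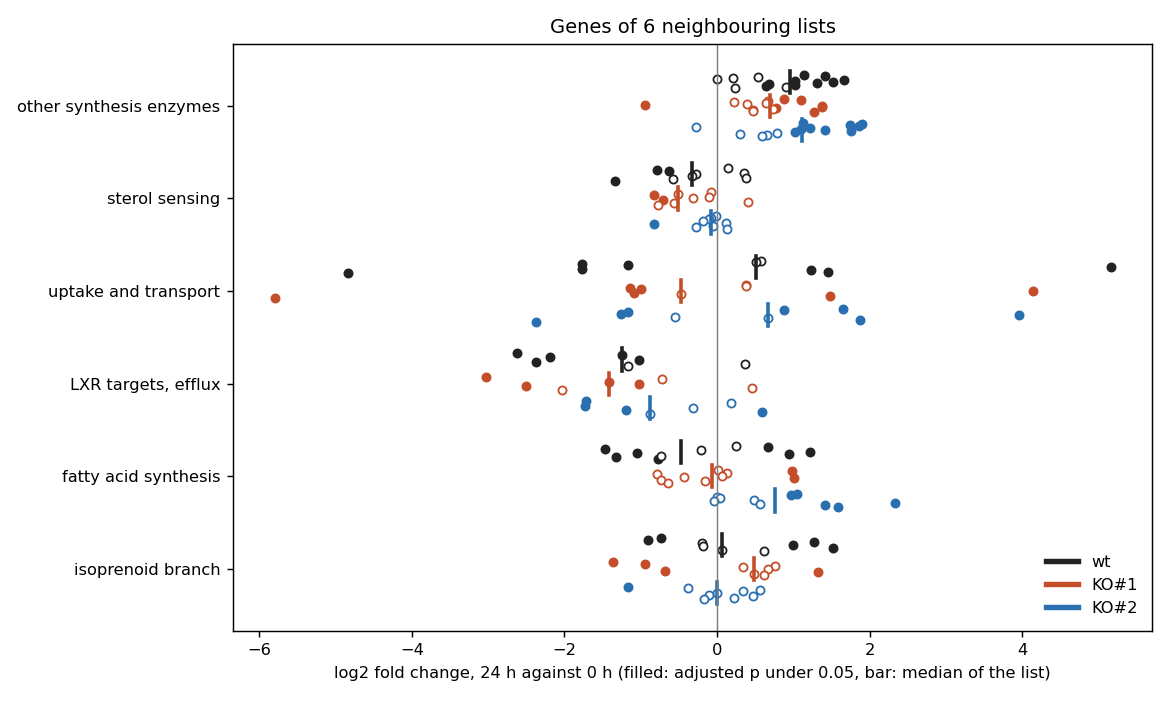
Log2 fold change from 0 h to 24 h (horizontal axis) of each gene of the 6 lists in wt cells (black), KO#1 (orange) and the KO#2-labelled libraries (blue), filled where called, with a bar at the median of the list. The bars of the other synthesis enzymes (0.96, 0.70 and 1.11) lie above 0, and those of the liver X receptor list below 0.

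Outside the members and the 6 lists, the genes whose profile over the 18 libraries was most like the mean of the 8 members were Mest (r = 0.97), Actr3b (0.97), Ppp2r2d (0.95), Tex19.1 (0.94) and Fgf15 (0.94), of 10652 such genes compared on the log2 CPM scale. Among the members themselves, which enter that mean, Sqle (0.96) and Lss (0.95) were the closest, while Srebf2 ran against it (-0.46). Each of the 5 other genes rose in each line, with log2 fold changes in wt cells from 1.21 for Ppp2r2d to 5.04 for Fgf15. The libraries share the step between the times, so the values describe that step above all.

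Annotated genes on the other strand overlap Hmgcs1, Idi1, Fdft1 and Lss, and genes on the same strand overlap Fdps and Srebf2. The libraries were made with a stranded kit, and whether strand was used in the counting is not given in the sources used here. Reads of an overlapping pair may have been counted for either gene.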

How the data were processed

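RNA from 18 libraries (3 lines, 0 h and 24 h, 3 biological replicates each) was sequenced. The authors ran the nf-core rnaseq pipeline (adapter trimming, removal of ribosomal reads, STAR on Ensembl GRCm38) and deposited 1 table of raw counts per gene, and the labels name DESeq2. The annotation release and the strand setting are not given in the sources used here. From these counts, genes with at least 10 counts by filterByExpr were kept (16619 of 45706), libraries were scaled by the trimmed mean of M-values, and edgeR 4.0.16 (glmQLFit, glmQLFTest, R 4.3.3) was fitted with 6 group means over all libraries. P-values were adjusted by Benjamini-Hochberg over all genes tested, and 0.05 was the threshold. Log2 CPM used a prior count of 2. Intervals are at 95%.

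Alternatives were DESeq2 1.42.0, other scalings and filters, a replicate block, a stricter threshold and the omission of each library. No 2 of the libraries were identical. Same-numbered libraries deviated together (r above 0.1 in each of 3 pairs) only for KO#1 against wt at 24 h (0.48, 0.22 and 0.59). The code was tested on simulated data. P-values measure the spread between cultures of single clones. Gene coordinates and lengths are from GENCODE on GRCm38.

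The members and the lists were chosen with earlier results of these data known. Named were the 8 members, from each list and comparison genes among those with the largest called rise or fall, Hmga2, and the 5 genes outside members and lists with the most similar profile (average log2 CPM of at least 2). Scd2 was named because its response differed, after its values were seen. Some genes that the rule names are not reported here.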

Additional observations from a re-analysis of the deposited data

Results flagged for a closer look

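The change of 2 genes of fatty acid synthesis from 0 h to 24 h differed between the KO#2-labelled libraries and wt cells by a test of the difference itself (interaction term, edgeR). Scd1 changed by 2.74 more on the log2 scale in the KO#2-labelled libraries (SE 0.34, adjusted p = 0.000603), where it rose, while it fell in wt cells. Scd2, another stearoyl-CoA desaturase, changed by 2.36 more (SE 0.45, adjusted p = 0.0148), from 240 ± 78.3 to 719 ± 220 CPM (SD, n = 3) against 461 ± 86.0 to 268 ± 56.2 CPM in wt cells. No cholesterol synthesis gene was singled out in this way, and with 3 libraries in a group no single library was tested as an outlier.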

How the results depend on the processing

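With library sizes alone the number of members called was 2 of 8 for KO#1 from 0 h to 24 h (Idi1 and Srebf2, against 7 by the trimmed mean), 5 for wt cells over time (7 by the trimmed mean, with Sqle and Lss lost at adjusted p of 0.0519 and 0.203), 6 for the KO#2-labelled libraries against wt at 24 h and 1 for their response. Under it the median change over all genes moved by -0.79 for KO#1 and -0.61 for wt cells over time and by 1.04 and 0.59 for the KO#2-labelled libraries, and it turned Sqle in the KO#2-labelled libraries against wt at 24 h from -0.06 to 0.96 (called), the 1 reversal. At an adjusted p under 0.01, 0 members were called in KO#1 and 0 in the KO#2-labelled libraries against wt at 0 h. For the latter it was 3 with DESeq2 (Fdft1 added) and 3 with no filter (Idi1 added), against 2, and with library sizes alone it stayed at 2 with Idi1 (1.30, adjusted p = 0.0224) in place of Srebf2. With only the groups compared, the number was 0 for KO#1 against wt at 0 h, 1 at 24 h, and 2 for the KO#2-labelled libraries against wt at 24 h, where it was 1 with RLE size factors, 2 with no filter, 1 with at least 10 counts in every library, 1 with protein-coding genes only, 1 with DESeq2 and 1 with the replicate block, each time including Hmgcs1. The numbers do not pair those libraries, and the replicate block moved no other number of members called (7, 7 and 7 over time, 1 and 2 at 0 h). For the response of the KO#2-labelled libraries it was 2 with no filter, 1 with protein-coding genes only and 1 with DESeq2, against 0. The cause was not tested. With single libraries left out, the number of members called ranged from 5 to 8 for KO#1 over time, 0 to 1 for KO#1 and 0 to 2 for the KO#2-labelled libraries against wt at 0 h, and 0 to 1 for the response of the KO#2-labelled libraries. It was 7 in each omission for wt cells and for the KO#2-labelled libraries over time, and 0 for both clones against wt at 24 h and for the response of KO#1. Counting each of the 6 enzymes under each alternative, the rise was called in 88 of 90 values in wt cells, 77 of 90 in KO#1 and 90 of 90 in the KO#2-labelled libraries. Of 1176 member values under an alternative, 56 changed sign without being called. The shallowest library had 3466436 counts, where 3 counts stand for 0.984 CPM, below the level of each member in it.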
